A study of Mus musculus with 6 samples.

Results

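A set of 10 genes of amino acid and one-carbon metabolism that are known targets of the transcription factor ATF4 were followed in areas of *Ndufs6* knockdown mouse hearts with high or low Atf3 protein. The genes were taken by symbol: *Mthfd2* and *Shmt2* (mitochondrial one-carbon metabolism), *Phgdh*, *Psat1* and *Psph* (serine synthesis), *Asns* (asparagine synthesis), *Aldh18a1* and *Pycr1* (proline synthesis), *Chac1* (glutathione breakdown) and *Trib3* (a pseudokinase that restrains ATF4). Of these 10 genes, 9 were among the 17145 genes counted, and *Aldh18a1* was not analysed here. Every one of the 9 had a higher mean level in the Atf3 high libraries than in the Atf3 low libraries, where 57.3% of all genes did, but none passed an adjusted p of 0.05, as 0.0913% of the genes tested did. Most of the excess sat in Atf3 high replicates 1 and 2, and the summed level in Atf3 high replicate 3 lay within the range of the Atf3 low libraries.

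The libraries came from fresh-frozen FS6KD hearts. FS6KD mice carry a gene trap that lowers *Ndufs6*, a subunit of respiratory chain complex I, mainly in the heart. All 6 libraries, 3 Atf3 high and 3 Atf3 low, shared this genotype, a mixed C57BL/6J and 129/Ola background and no treatment named in the sources used here, so the low areas are not a healthy control. The labels give the mice as female and the cells as cardiomyocytes, and they give no age. The study calls the libraries of a group biological replicates, but no source used here ties a library to an animal or says whether high and low areas shared animals, so p-values measure the spread between libraries. Areas were chosen by anti-Atf3 immunostaining and released by ultraviolet light (photo-isolation chemistry), and their mRNA was counted by CEL-seq2 as UMIs, random tags that let each captured molecule be counted once.

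ATF4 is translated when stress kinases phosphorylate the initiation factor eIF2α, a pathway called the integrated stress response, and faults of the mitochondrial respiratory chain are among its known triggers in heart and skeletal muscle. It raises the enzymes that make serine, asparagine and proline, the mitochondrial folate enzymes that take 1-carbon units from serine, amino acid transporters and tRNA synthetases. *Chac1* and *Trib3* are ATF4 targets outside these routes: the first cleaves glutathione and the second binds ATF4 and lowers its activity. *Atf3* is itself known as a target of ATF4, but the study places its rise before this stress response in female FS6KD mice.

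ATF4 binds DNA together with C/EBP partners at C/EBP-ATF response elements, and the promoters of the members were searched for such an element (TGATGNAA, either strand) because the members are known as ATF4 targets. RefSeq promoter windows (GRCm38.p6) cover 250 bases before to 50 after each transcript start, and 10 of 10 members matched at least 1 window, 11 windows in all. The element was found in 4 of the 10 members, *Chac1*, *Trib3*, *Asns* and *Pycr1*, and in 3.97% of all 32851 windows. The 4 stretches of 28 bases below are read 5′ to 3′ on the strand of the gene, with the element in capitals. In *Chac1* and *Trib3* it lies on the opposite strand, so that the capitals are its reverse complement.
*Chac1*, chr2:119351039-119351066, plus strand: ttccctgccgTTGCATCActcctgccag
*Trib3*, chr2:152344029-152344056, minus strand: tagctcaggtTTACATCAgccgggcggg
*Asns*, chr6:7693215-7693242, minus strand: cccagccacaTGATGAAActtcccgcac
*Pycr1*, chr11:120643834-120643861, minus strand: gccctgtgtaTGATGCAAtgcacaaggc

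Counted from +1 at the first transcribed base, the element spans −193 to −186 in *Chac1*, +15 to +22 in *Trib3*, −23 to −16 in *Asns* and −103 to −96 in *Pycr1*. On the searched strand it reads TGATGCAA in both *Chac1* and *Pycr1*, TGATGTAA in *Trib3* and TGATGAAA in *Asns*. The bases from −250 to −51 are shown for *Chac1*, which had the largest fold change of the 5 members tested below, and *Pycr1*, the member without a UMI in Atf3 low, again with the element in capitals.
*Chac1*, chr2:119350992-119351191, plus strand: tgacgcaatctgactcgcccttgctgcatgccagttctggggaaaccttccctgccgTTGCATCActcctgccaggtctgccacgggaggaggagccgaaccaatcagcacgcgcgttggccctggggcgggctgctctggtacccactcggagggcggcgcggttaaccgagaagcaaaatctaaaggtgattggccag
*Pycr1*, chr11:120643799-120643998, minus strand: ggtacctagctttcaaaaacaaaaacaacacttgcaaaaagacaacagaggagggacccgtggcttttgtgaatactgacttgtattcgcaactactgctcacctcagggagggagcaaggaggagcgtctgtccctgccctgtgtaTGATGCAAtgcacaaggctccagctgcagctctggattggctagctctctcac

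The full cyclic AMP response element (TGACGTCA, bound by homodimers and heterodimers of the ATF and CREB families) was found in 0 of the 10 members and in 1.79% of all windows. Its core (TGACG, either strand, which every full element also holds) was found in 5 members, *Chac1*, *Trib3*, *Psph*, *Asns* and *Aldh18a1*, and in 20.8% of all windows. No searched motif lay in the windows of *Mthfd2*, *Shmt2*, *Phgdh* or *Psat1*, which says only that these letters are not in these windows. No binding was measured in these libraries, so a match is a description of sequence.

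**Figure D1:**
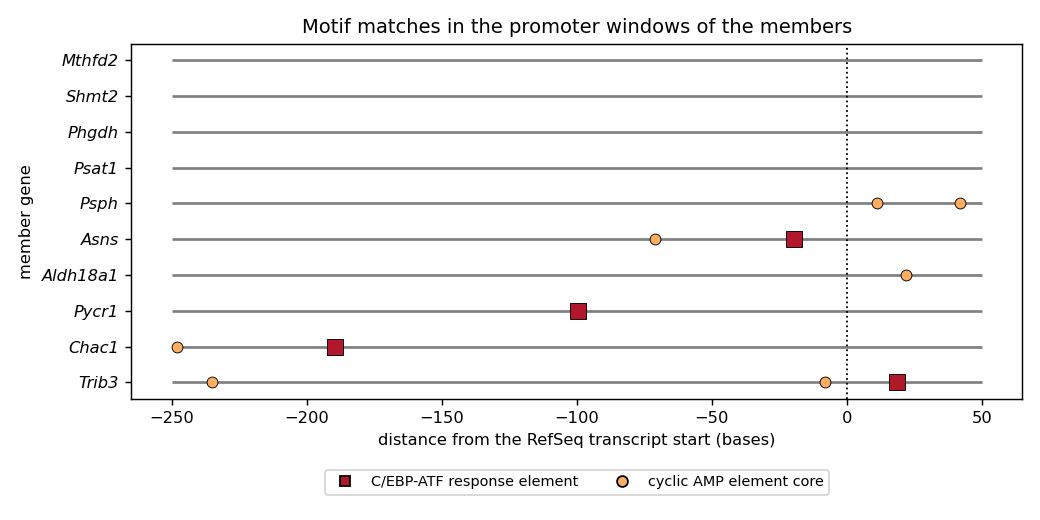
Positions of motif matches in the RefSeq promoter windows of the 10 members, in bases from the transcript start (x axis, 250 before to 50 after, dotted line at the start), 1 line per gene, with both windows of *Psat1* on 1 line. Squares mark the C/EBP-ATF response element, present in 4 members, and circles mark the core of the cyclic AMP response element, present in 5.

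The libraries held from 81117 to 210588 UMIs on genes, and between 6936 and 11971 genes in each had a UMI. Levels are given as CPM, the UMI count scaled to a common library size after TMM scaling, which centers libraries on genes of intermediate change. A single UMI stood for 4.66 to 13.6 CPM depending on the library. A count of 0 thus allows levels as high as 40.9 CPM in Atf3 low replicate 3, where a UMI weighs most (3 UMIs, counting error only). Pairs of libraries within a group differed beyond counting error, with chi-square statistics from 3.55 to 5.07 times their degrees of freedom. Atf3 high replicate 2 stood apart from its label as female, with 16 UMIs of *Ddx3y* and *Eif2s3y*, both Y-linked, and 0 of *Xist*, whereas the other 5 libraries held 0 or 1 of the former and from 3 to 26 of the latter. It was also the shallowest library, and member values without it are given below.

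*Atf3*, whose protein chose the areas, was counted 50, 7 and 25 times in the Atf3 high libraries (replicates 1, 2 and 3, the order used throughout) and 35, 0 and 8 times in the Atf3 low libraries. Its mRNA levels overlapped between the groups, so the labels can be checked only partly from the mRNA (254, 84.5 and 116 CPM against 236, 0 and 109). The log2 fold change of *Atf3* was 0.40 (standard error 0.65, adjusted p = 0.997), with −0.19 when Atf3 high replicate 1 was left out and −0.23 when Atf3 low replicate 2 was. *Atf4* mRNA, which reports the translated factor poorly because its control is mainly translational, had 285, 205 and 210 CPM in the Atf3 high libraries against 175, 200 and 123. These groups did not overlap, and the difference was 0.48 on the log2 scale (standard error 0.48, adjusted p = 0.997).

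The question put to the members was whether their levels differed between Atf3 high and Atf3 low areas, and by how much when each library was left out. Genes with at least 10 UMIs over the 6 libraries were tested with the quasi-likelihood test of edgeR, p-values were adjusted by Benjamini-Hochberg over all 7665 of them, and fold changes are written as Atf3 high minus Atf3 low on the log2 scale. The minimum was reached by 5 members, *Mthfd2*, *Shmt2*, *Psat1*, *Asns* and *Chac1*. *Phgdh*, *Psph*, *Pycr1* and *Trib3* had from 4 to 8 UMIs in all and are described by their counts. *Shmt2*, *Psat1* and *Chac1* had fewer than 10 UMIs in the Atf3 low libraries together and passed this minimum only through the Atf3 high libraries, so their passing already favors a positive fold change.

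*Mthfd2* (chr6:83305691-83325908, minus strand, GRCm38) encodes the mitochondrial methylenetetrahydrofolate dehydrogenase and cyclohydrolase that oxidizes folate-bound 1-carbon units. Its levels were 198, 36.2 and 32.6 CPM in Atf3 high (39, 3 and 7 UMIs) and 20.2, 58.4 and 13.6 CPM in Atf3 low (3, 7 and 1 UMIs). Atf3 high replicate 1 alone stood above all others and held 79.6% of the group's *Mthfd2* UMIs, and the other Atf3 high libraries lay between Atf3 low replicates 1 and 2. The means were 89.0 ± 94.6 and 30.7 ± 24.2 CPM (SD, n = 3 each), with a log2 fold change of 1.51 (standard error 0.81, unadjusted p = 0.0689, adjusted p = 0.920). Without Atf3 high replicate 1 the fold change was 0.11 (unadjusted p = 0.924).

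*Shmt2* (chr10:127517123-127522444, minus strand) encodes the mitochondrial serine hydroxymethyltransferase, which splits serine into glycine and a 1-carbon unit. It had 50.8, 109 and 23.3 CPM in Atf3 high (10, 9 and 5 UMIs) and 6.74, 25.0 and 0 CPM in Atf3 low (1, 3 and 0 UMIs). Atf3 low replicate 2 exceeded Atf3 high replicate 3 by a small margin, and this was the only overlap. The log2 fold change was 2.24 (standard error 1.08, unadjusted p = 0.0435, adjusted p = 0.843), and the means were 60.9 ± 43.6 and 10.6 ± 13.0 CPM. Leaving out 1 library at a time moved it from 1.61 without Atf3 high replicate 2 (unadjusted p = 0.212) to 3.44 without Atf3 low replicate 2.

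Serine synthesis from 3-phosphoglycerate takes 3 steps, catalyzed in turn by the products of *Phgdh*, *Psat1* and *Psph*. *Psat1* (chr19:15904678-15947337, minus strand), the phosphoserine aminotransferase, had 152, 169 and 13.97 CPM in Atf3 high (30, 14 and 3 UMIs) and 20.2, 33.4 and 13.6 CPM in Atf3 low (3, 4 and 1 UMIs). Atf3 high replicates 1 and 2 were both above every Atf3 low library, and replicate 3 was level with the lowest of them. The means of 112 ± 85.1 and 22.4 ± 10.1 CPM gave a log2 fold change of 2.18 (standard error 0.84, unadjusted p = 0.0125, adjusted p = 0.663). It was 1.84 without Atf3 high replicate 1 (unadjusted p = 0.0859), 1.80 without Atf3 high replicate 2 (unadjusted p = 0.0738) and 2.73 without Atf3 high replicate 3.

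*Phgdh* (chr3:98313170-98339990, minus strand), the dehydrogenase of the first step, was seen with 1, 3 and 1 UMIs in the Atf3 high libraries against 2, 0 and 0. *Psph* (chr5:129765558-129787449, minus strand), the phosphatase of the last step, was seen with 1, 0 and 2 UMIs against 1, 0 and 0. Both genes overlapped between the groups, and the ratios of their pooled UMIs scaled for depth, 1.73 (95% exact interval 0.283 to 18.2) and 2.07 (0.167 to 109), cannot show a difference at this depth. *Phgdh* has 13 annotated near-identical copies, 1 of which had a UMI (1 in all), so counting may have split or moved its reads. With both strands searched, a 452-base stretch of *Psph* matches a transcript of *Cct6a* (102 UMIs) at 100% identity. *Cct6a* overlaps *Psph* on the opposite strand. Whether reads of *Psph* were moved thus depends on the strand setting of the counting, which is not given.

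*Asns* (chr6:7675169-7693254, minus strand), asparagine synthetase, makes asparagine from aspartate and glutamine. Its levels were 102, 398 and 23.3 CPM in Atf3 high (20, 33 and 5 UMIs) and 60.6, 41.7 and 0 CPM in Atf3 low (9, 5 and 0 UMIs). Here Atf3 high replicate 2 was the highest, in contrast to *Mthfd2*, and replicate 3 lay below 2 of the Atf3 low libraries. The means were 174 ± 198 and 34.1 ± 31.0 CPM, and the log2 fold change was 2.06 (standard error 0.77, unadjusted p = 0.0106, adjusted p = 0.649). Leaving out Atf3 high replicate 2, whose Y-linked UMIs are described above, brought it to 0.71 (unadjusted p = 0.461).

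In proline synthesis *Aldh18a1* makes glutamate semialdehyde, which cyclizes to pyrroline-5-carboxylate, and *Pycr1* encodes a mitochondrial reductase that turns this into proline. *Pycr1* (chr11:120635712-120643769, minus strand) was at 10.2, 36.2 and 9.32 CPM in the Atf3 high libraries (2, 3 and 2 UMIs) and had no UMI in any Atf3 low library. The groups did not overlap. Set against 3 UMIs over the Atf3 low group the ratio was 1.61, but the exact 95% lower limit of the ratio of pooled UMIs was 0.996, below 1, so a difference cannot be shown at this depth. With no minimum on UMIs (17145 genes tested) its unadjusted p was 0.0468 and its adjusted p 0.715.

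*Chac1* (chr2:119351229-119354381, plus strand) encodes a γ-glutamyl cyclotransferase that degrades glutathione. It had 137, 24.1 and 4.66 CPM in Atf3 high (27, 2 and 1 UMIs) and 0, 0 and 13.6 CPM in Atf3 low (0, 0 and 1 UMIs). Atf3 high replicate 1 held 90% of the group's UMIs, and the single UMI of Atf3 low replicate 3 put that library above Atf3 high replicate 3. The means were 55.3 ± 71.6 and 4.54 ± 7.86 CPM and the ratio of pooled UMIs was 20.7 (95% exact interval 3.45 to 846, counting error only). The log2 fold change was 3.85 (standard error 1.39, unadjusted p = 0.00813, adjusted p = 0.649), or 1.99 with a prior count of 2. Without Atf3 high replicate 1 the gene had fewer than 10 UMIs and could not be fitted.

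*Trib3* (chr2:152337422-152344032, minus strand) was at 15.2, 24.1 and 9.32 CPM in the Atf3 high libraries (3, 2 and 2 UMIs) against 6.74, 0 and 0 CPM (1, 0 and 0 UMIs). All 3 Atf3 high libraries lay above all 3 Atf3 low libraries, by as little as 1 UMI. The ratio of pooled UMIs was 4.84 (95% exact interval 0.622 to 218), and the interval includes 1. With no minimum on UMIs the unadjusted p was 0.221.

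**Figure D2:**
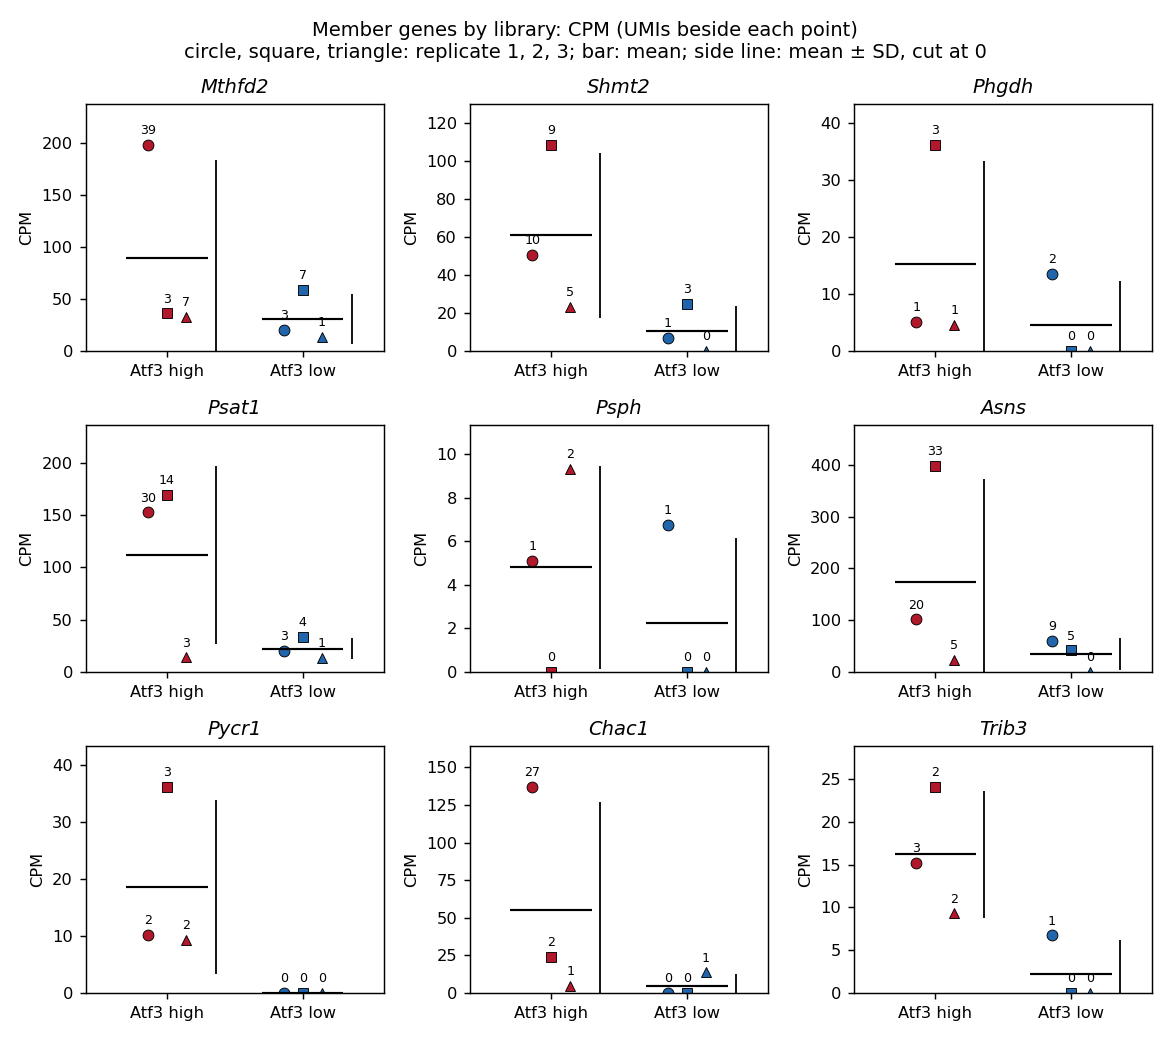
Levels of the 9 counted members in CPM (y axis, a scale of its own in each panel) in the Atf3 high (red) and Atf3 low (blue) libraries, with the UMIs beside each point, circles, squares and triangles for replicates 1, 2 and 3, a bar at the mean and a side line for mean ± SD cut at 0 (n = 3). Atf3 high replicate 1 leads in *Mthfd2* and *Chac1* (198 and 137 CPM), Atf3 high replicate 2 leads in *Asns* (398 CPM), and the groups do not overlap in *Pycr1* and *Trib3*.

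The shares below are descriptions and no support for a change of the members as a set, since 3 of the 5, *Shmt2*, *Psat1* and *Chac1*, had fewer than 10 UMIs in the Atf3 low libraries (as did 43.2% of all genes tested) and entered the test only through Atf3 high. A positive fold change was found in 5 of the 5, and in 55.2% of the genes tested. Higher with an unadjusted p under 0.05 were 4 of the 5, *Shmt2*, *Psat1*, *Asns* and *Chac1*, against 3.55% of all genes tested, and 0 of the 5 were lower, against 2.24%. None of the 5 passed an adjusted p of 0.05, as 0.0913% of all genes did (7 genes). Without overlap between the groups and higher were 0 of the 5, against 7.07% of all genes tested, and 0 of the 5 were lower without overlap, against 3.89%. The median log2 fold change of the 5 was 2.18, and that of all genes tested was 0.11. Scaling by library size alone moved the median of all genes to 0.31 and the share of higher genes among those at an unadjusted p under 0.05 from 61.3% to 79.8%.

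Each of the 5 stayed positive when each library was left out in turn, except that *Chac1* could not be fitted without Atf3 high replicate 1, and none passed an adjusted p of 0.05 (lowest 0.279, *Psat1* and *Asns* without Atf3 high replicate 3). Without Atf3 high replicate 1, 1 member, *Asns*, remained at an unadjusted p under 0.05. Without Atf3 high replicate 2 there were 2, *Mthfd2* (1.82) and *Chac1* (4.16). There were 2 others, *Psat1* and *Asns*, without Atf3 low replicate 1, and 2, *Psat1* and *Chac1*, without Atf3 low replicate 3. Without either Atf3 high replicate 3 or Atf3 low replicate 2 all 5 were at an unadjusted p under 0.05. The fold change was lowest without Atf3 high replicate 1 for *Mthfd2* and without Atf3 high replicate 2 for *Asns*, and *Psat1* stayed between 1.80 and 2.73. Where it could be fitted, *Chac1* ran from 3.15 without Atf3 low replicate 1 to 6.12 without Atf3 low replicate 3.

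**Figure D3:**
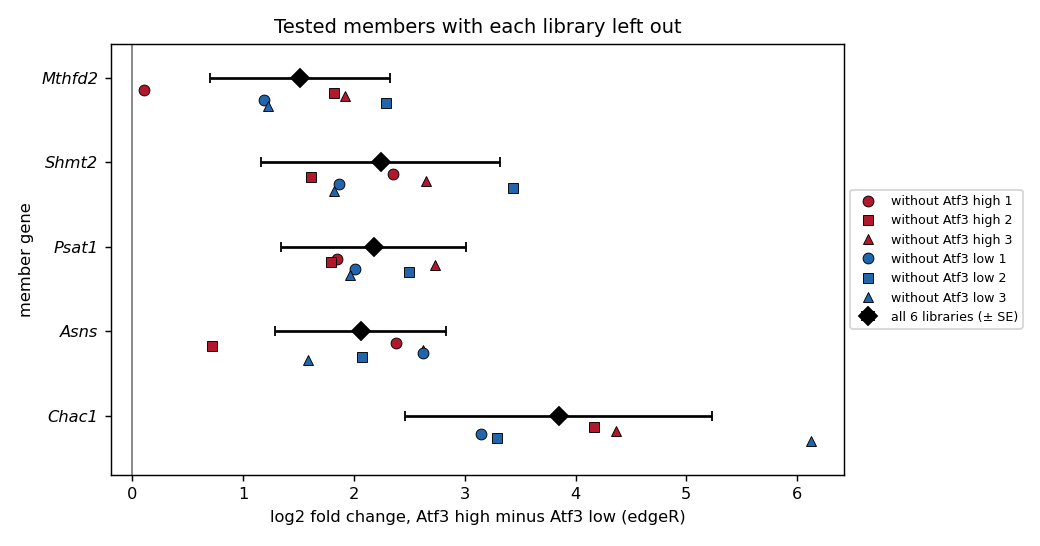
Log2 fold change, Atf3 high minus Atf3 low (x axis), of the 5 tested members with all 6 libraries (diamond with ± 1 standard error) and with each library left out (red for Atf3 high, blue for Atf3 low, with shapes for replicates). *Mthfd2* drops to 0.11 without Atf3 high replicate 1 and *Asns* to 0.71 without Atf3 high replicate 2, and all values lie above 0.

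Summed over the 9 counted members, the level was 676, 833 and 130 CPM in Atf3 high (133, 69 and 28 UMIs) and 135, 159 and 40.9 CPM in Atf3 low (20, 19 and 3 UMIs). Atf3 high replicates 1 and 2 stood far above the highest Atf3 low library, whereas replicate 3 was below 2 of the 3 Atf3 low libraries. The means were 546 ± 369 and 111 ± 62.2 CPM.

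Summed markers of some cell types differed along with the member sums and those of others did not. The part of cell types in the result was not tested. All 9 cardiomyocyte markers were found in every library, and their summed level was lowest in the Atf3 high replicates 1 and 2 that led the members (22962 and 23643 CPM), with 44022 in replicate 3 and from 45034 to 59925 in Atf3 low. All 9 were lower, 4 of them with an unadjusted p under 0.05 (against 2.24% of all genes tested). *Myh6*, the α myosin heavy chain, fell by 1.81 on the log2 scale and passed the adjusted p (0.00512). It no longer passed on leaving out Atf3 high replicate 1 (adjusted p = 0.209), Atf3 high replicate 2 (0.115), Atf3 low replicate 1 (0.0508) or Atf3 low replicate 3 (0.273), with fold changes from −1.58 to −1.85. In such bulk areas fewer cells of a type and less RNA per cell cannot be told apart. Fibroblast markers summed to 5599, 3174 and 1998 CPM in Atf3 high and from 1512 to 2655 CPM in Atf3 low. Positive were 7 of 8 (against 55.2% of all genes tested), and 3 were higher at an unadjusted p under 0.05 (against 3.55%). These 3 were the collagens *Col1a2* at 1.33 and *Col3a1* at 1.09, and *Postn* at 1.59. Without Atf3 high replicate 1 they were at 0.83, 0.40 and 1.02. The remaining markers were *Pdgfra* (0.97), *Col1a1* (0.68), *Dcn* (0.32), *Lum* (0.25) and *Gsn* (−0.26). *Pdgfra*, a defining fibroblast marker, was at 0 in Atf3 low replicate 2. The fibroblast sums overlapped between the groups, and so did those of the other lists: endothelial cells 1086 to 1514 and 940 to 1584 CPM (7 markers), macrophages 168 to 346 and 229 to 334 (8 markers, with *Adgre1* and *Cd163* at 0 in 4 libraries each), mural cells 253 to 711 and 136 to 559 (6 markers), and erythrocytes 32.6 to 157 and 0 to 128 (2 markers). All 6 mural markers were positive, with a median log2 fold change of 0.80, beside 0.83 for the fibroblast markers. The mural sums in Atf3 high were 711, 253 and 689 CPM, lowest in replicate 2, where the member sum was highest.

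**Figure D4:**
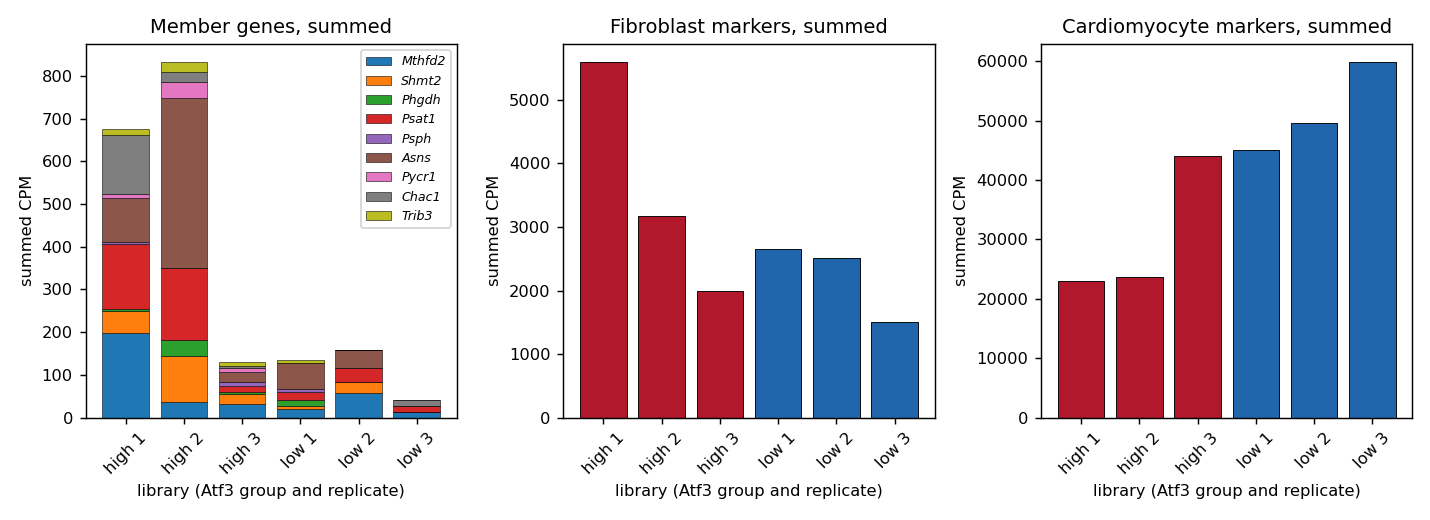
Summed CPM per library of the 9 counted members (left, stacked by gene), of 8 fibroblast markers (middle) and of 9 cardiomyocyte markers (right). In the middle and right panels red bars are Atf3 high and blue bars Atf3 low. The members reach 676 and 833 CPM in Atf3 high replicates 1 and 2, the libraries of the lowest cardiomyocyte marker sums, and 130 CPM in Atf3 high replicate 3.

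The members lie within wider routes, and 83 further genes of these routes were counted, of which 59 were tested. Of the 59, 22 had fewer than 10 UMIs in the Atf3 low libraries, so that the counts and medians of these lists are descriptions too. Positive were 46 (against 55.2% of all genes tested) and negative 13, with a median log2 fold change of 0.65. At an unadjusted p under 0.05, 7 were higher (11.9%, against 3.55% of all genes tested) and 1 was lower (against 2.24%). Without overlap 11 were higher (against 7.07%) and 1 was lower, *Dld*, the dihydrolipoamide dehydrogenase of the glycine cleavage system (against 3.89%), named after its value had been seen. The 7 higher genes became 4 without either Atf3 high replicate 1 or Atf3 high replicate 2, and 11 without Atf3 high replicate 3. None of the 59 passed an adjusted p of 0.05.

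Among the other folate and one-carbon genes, 6 of 8 tested were positive (median 0.46), and 6 of the 8 had fewer than 10 UMIs in Atf3 low. *Mtrr*, the reductase that reactivates methionine synthase, had 66.1, 36.2 and 18.6 CPM in Atf3 high (13, 3 and 4 UMIs) and 6.74, 0 and 0 CPM in Atf3 low (1, 0 and 0 UMIs), without overlap. Its log2 fold change was 3.48 (standard error 1.39, unadjusted p = 0.0162). The summed level of this list was nearly the same in both groups, 597 ± 56.9 and 598 ± 96.8 CPM. Most of it was *Dld*, at 318 ± 45.2 CPM in Atf3 high and 468 ± 52.0 CPM in Atf3 low. The sum thus says little about the other genes of the list. The 3 methionine and transsulfuration genes tested had a median of 0.04, with *Mat2b*, the regulatory subunit of methionine adenosyltransferase, at −0.52 (standard error 0.76) and *Ahcyl1* at 0.16 (standard error 0.63, and −0.01 or −0.08 without Atf3 low replicate 1 or 2).

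Other genes of serine, asparagine, proline and glutamate handling were positive in 9 of 13 cases, with a median of 0.18, close to that of all genes. Of the 13, 5 had fewer than 10 UMIs in Atf3 low. *Pycrl*, which encodes a further pyrroline-5-carboxylate reductase, was counted 10, 1 and 2 times in the Atf3 high libraries and never in the Atf3 low libraries, with 76.9% of its UMIs in Atf3 high replicate 1. It was tested only through the Atf3 high libraries (unadjusted p = 0.0173, adjusted p = 0.729), and the exact 95% lower limit of its ratio of pooled UMIs was 2.11 (counting error only). *Aldh4a1*, which degrades proline by way of pyrroline-5-carboxylate, was at 1.26 (standard error 0.71, unadjusted p = 0.0843). The summed level of the list was 2634 ± 398 CPM in Atf3 high and 2753 ± 135 CPM in Atf3 low, which overlapped.

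The 6 tested glutathione genes were all positive, with a median of 1.64, but 5 of them, all except *Gclm*, had fewer than 10 UMIs in Atf3 low and passed the minimum through Atf3 high. *Gclm*, the modifier subunit of the enzyme that starts glutathione synthesis, had 173, 217 and 41.9 CPM in Atf3 high and 33.7, 25.0 and 81.7 CPM in Atf3 low. Atf3 high replicate 3 again lay within the Atf3 low range, and the log2 fold change was 1.66 (standard error 0.70, unadjusted p = 0.0220). *Slc7a11*, the cystine transporter subunit, was at 2.00 (standard error 1.41, unadjusted p = 0.162) without overlap. The summed level of the list did not overlap between the groups (177 to 398 and 75.1 to 136 CPM).

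Amino acid transporters and tRNA synthetases were positive in 14 of 15 cases, with a median of 1.01. *Gars*, glycyl-tRNA synthetase, had 325, 193 and 107 CPM in Atf3 high and 53.9, 41.7 and 54.5 CPM in Atf3 low, without overlap, and a log2 fold change of 2.05 (standard error 0.60, unadjusted p = 0.00135, adjusted p = 0.462). *Lars*, leucyl-tRNA synthetase, had 86.4, 205 and 51.2 CPM against 27.0, 41.7 and 13.6 CPM, also without overlap, and a log2 fold change of 1.89 (standard error 0.77, unadjusted p = 0.0181). The summed level of this list was 997 to 1907 CPM in Atf3 high and 531 to 903 CPM in Atf3 low. In contrast to the members, all Atf3 high libraries, replicate 3 included, exceeded all Atf3 low libraries in it.

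Regulators of the integrated stress response were positive in 9 of 14 cases, with a median of 0.33. *Gdf15*, a secreted stress hormone, had 386, 434 and 51.2 CPM in Atf3 high and 60.6, 50.1 and 40.9 CPM in Atf3 low, the same order of libraries as in the member sums for Atf3 high. Its log2 fold change was 2.44 (standard error 0.62, unadjusted p = 3.2e-04, adjusted p = 0.223), and without Atf3 high replicate 3 it was 2.95 with an adjusted p of 0.0179. With any other library left out it was 2.05 to 2.54, with an adjusted p from 0.402 to 0.9996. *Vldlr*, the very low density lipoprotein receptor, was lower, at −1.21 (standard error 0.49, unadjusted p = 0.0183), with 86.4, 205 and 233 CPM against 391, 175 and 654 CPM. *Eif4ebp1*, an ATF4 target that restrains cap-dependent translation, was at 1.71 (unadjusted p = 0.0285) and was named after its value had been seen.

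**Figure D5:**
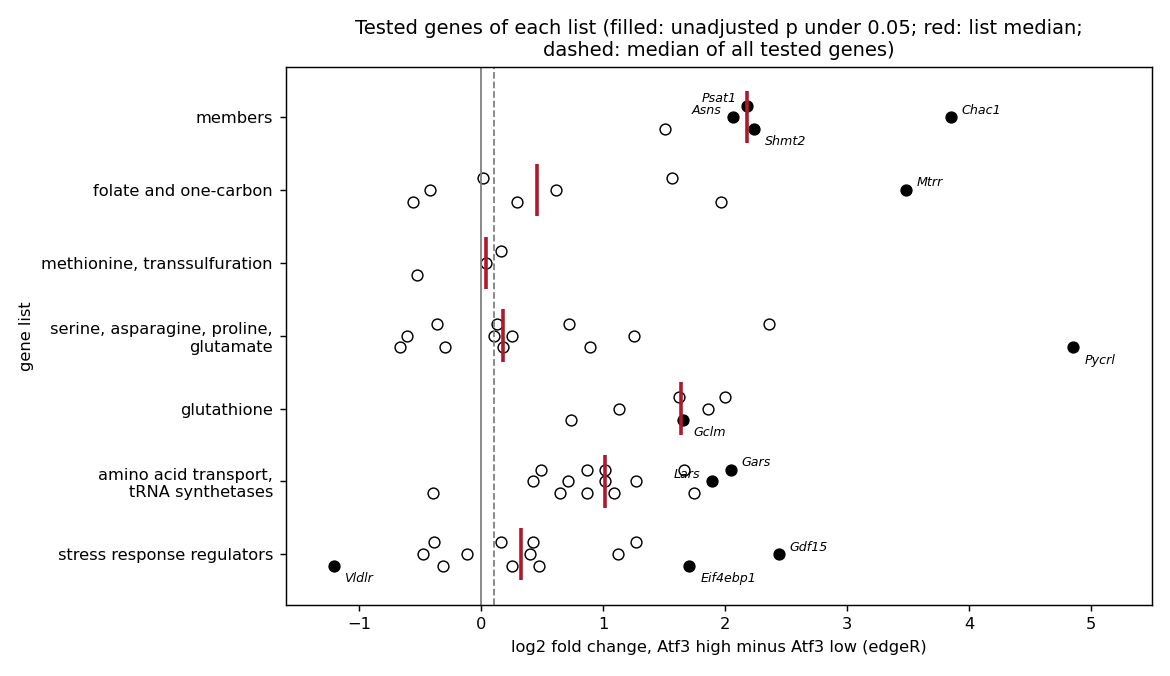
Log2 fold change, Atf3 high minus Atf3 low (x axis), of each tested gene by list (y axis), filled where the unadjusted p is under 0.05, with a red bar at the list median and a dashed line at the median of all tested genes (0.11). The list medians run from 0.04 (methionine and transsulfuration) to 1.64 (glutathione) beside 2.18 for the members, and the point of *Pycrl* depends on the prior count because its Atf3 low libraries are at 0.

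For the members with at least 50 UMIs, the tested genes of most similar pattern over the 6 libraries were listed by Pearson's r of log2(CPM + 4), as a description. For *Mthfd2* they were *Zscan21* (0.993), *Rrp1* (0.980) and *Wars1*, tryptophanyl-tRNA synthetase (0.972). For *Psat1* they were *Brk1* (0.990), *mt-Ti* (0.987) and *Trip4* (0.986). For *Asns* they were *Commd10*, *Nup188* and *AI480526*, each at 0.993 with 10 UMIs in all. All these genes share the libraries and their depth, and with 6 points among 7665 genes such values mark a like order of libraries and nothing more.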

How the data were processed

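UMI counts per gene of 6 libraries, 3 Atf3 high and 3 Atf3 low, were used as deposited. The authors' processing notes name HISAT2 (version 2.1.0), UMI-tools (version 1.0.0), featureCounts (version 1.6.4) and GRCm38. The annotation release, the strand setting and the handling of reads that map to several genes are not given in the sources used here. Libraries kept their labelled groups.

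Genes with at least 10 UMIs in total were normalized by TMM over these genes and tested two-sided by the quasi-likelihood F-test of edgeR (version 4.0.16, under R 4.3.3) on group alone, with Benjamini-Hochberg adjustment. This count model replaced the two-tailed *t* test that the study used on normalized counts. Standard errors are the fold change divided by the square root of F. CPM uses the TMM-scaled library size of the tested genes. Ratios of pooled UMIs have exact conditional 95% intervals (counting error only). Positions are from GENCODE on GRCm38, and transcripts were aligned by BLAST+ 2.17.0 to find copies with at least 95% identity over 200 bases. DESeq2 (version 1.42.0), other scalings and filters, thinning, a prior count of 2, a replicate block and leaving out each library were alternatives. The test was checked on simulated data.

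The members and lists were chosen with earlier results of these data known. Named were all members, *Atf3*, *Atf4*, from each list the 2 genes with the smallest p and, for members with at least 50 UMIs, the 3 most similar genes. A gene that this rule names is not reported here.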

Additional observations from a re-analysis of the deposited data

How the results depend on the processing

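No member passed an adjusted p of 0.05 under any alternative that gave one, and each kept a positive fold change, but edgeR's filterByExpr filter removed all 5 tested members and so gave them no value. DESeq2 gave an adjusted p only for *Asns* (0.602) among the 5. Of the 5 tested members, 1 to 5 were at an unadjusted p under 0.05 with a library left out, against 4. Of the genes of the neighbouring routes, 7 were higher at that p with all libraries, 12 with library size scaling, 2 with filterByExpr, 4 after thinning to 81117 UMIs, and 4 to 11 with a library left out, while 0 or 1 was lower. All genes past an adjusted p of 0.05 numbered 7, 12 with DESeq2, 24 with the replicate number as a block, and 0 to 11 with a library left out. At an unadjusted p they numbered 444, 249 with DESeq2, 119 with filterByExpr and 282 to 477 with a library left out. The share of these that were higher was 61.3%, and 79.8% with library size scaling, 51.0% with DESeq2 and 50.4% with filterByExpr.

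With a library left out, the fold change of *Atf3* ran from −0.23 without Atf3 low replicate 2 and −0.19 without Atf3 high replicate 1 to 1.65, and that of *Ahcyl1* from −0.080 and −0.013 without Atf3 low replicates 2 and 1 to 0.48. The list medians turned negative without Atf3 low replicate 2 for folate (−0.02), Atf3 high replicate 3 for serine, asparagine, proline and glutamate (−0.10) and Atf3 high replicate 1 for the regulators (−0.05). That of the methionine and transsulfuration list was negative after thinning (−0.11), without replicate 2 of Atf3 high (−0.17) and without replicate 1, 2 or 3 of Atf3 low (−0.01, −0.08 and −0.06). The median of the folate list was −0.55 with filterByExpr and that of the glutathione list 0.91 with a prior count of 2. The causes of these changes were not tested. Deviations from the group means had correlations of 0.0851, 8.755e-04 and 0.0657 between libraries of the same number (1, 2 and 3). Between Atf3 high and Atf3 low libraries of unlike number the correlations ran from −0.0946 to 0.0191. The highest were those of numbers 1 and 3, but all were small, so these correlations cannot tell whether the replicate numbers pair the libraries. At number 2 the sex-linked UMIs differed. Atf3 high had 16 of *Ddx3y* and *Eif2s3y* and 0 of *Xist*, and Atf3 low had 0 and 13. The libraries of number 2 thus do not look like areas of the same animal, although the replicate block pairs them. With the block, *Gdf15* (2.36, adjusted p = 0.0144), *Col1a2* (1.43, adjusted p = 0.0348) and *Col3a1* (1.38, adjusted p = 0.0329) gained an adjusted p under 0.05, *Myh6* kept it, and no member reached it. At 4.66 to 13.6 CPM per UMI, depth limits *Phgdh*, *Psph*, *Pycr1* and *Trib3* most.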
